A study of Homo sapiens with 8 samples.

Results

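The HOX genes were examined in H3122 cells, a human lung adenocarcinoma line that depends on an EML4-ALK fusion kinase, and in 3 derivatives with evolved resistance to ALK inhibitors. The members were 38 listed genes of the HOXA, HOXB, HOXC and HOXD clusters, matched to the deposited table by Ensembl identifier and named with GENCODE release 44. Of these, 37 had a row among 43869 genes, and HOXA13, a gene of limb and urogenital development, had none. The clusters' genes were paired with 94 distinct H3K27ac peaks at most 20 kb away, of 126470 peaks in all.

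HOX genes encode homeodomain transcription factors that give cells positional identity along the body axis. Their order on the chromosome follows the order of their domains in the embryo, from anterior groups 1 to 3 over central groups 4 to 8 to posterior groups 9 to 13. Adult cells keep part of this code, Polycomb and MLL complexes hold the clusters silent or active, and HOXA and HOXB genes of the anterior and central groups take part in airway branching during lung development.

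The 4 lines were therapy-naive H3122 cells and populations selected by gradual dose escalation, labelled as grown in 0.5 µM crizotinib (erCriz0), 2 µM alectinib (erAlec0) or 2 µM lorlatinib (erLor0). All 4 derive from H3122, the state of the fusion in each line was not analysed here, and the RNA was taken after 48 h without inhibitor. The labels name DMSO vehicle for every ChIP sample, and whether inhibitor was present when these cells were fixed is not given in the sources used here. Each line had 1 RNA library and 1 H3K27ac ChIP library, so no difference below has a replicate check, no test was run, and differences between lines include any difference between single cultures. Values are rlog values, a log2 scale on which differences of features with few reads are drawn toward 0, and each change was taken by subtracting the naive value from that of the resistant line. In such bulk libraries, fewer cells with a transcript and less transcript per cell cannot be told apart.

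Of the 9 lung epithelial markers, 7 reached the level of 25 reads used as a minimum for RNA (4.64 on the rlog scale), among them NKX2-1 at 8.68, 8.67, 9.13 and 9.18 and EPCAM at 12.34, 12.64, 12.54 and 12.51 in naive, erCriz0, erAlec0 and erLor0. The surfactant gene SFTPB and NAPSA were below it. None of the 4 immune markers reached it, and 1 of 4 fibroblast markers with a row and 1 of 3 endothelial markers did. The endothelial gene was CDH5, which stood at 4.10 and 4.28 in naive and erCriz0 and rose to 5.78 and 5.64 in erAlec0 and erLor0. PECAM1 and VWF, the other endothelial markers, were near 0 in every library, between -0.13 and 0.19. The summed level of the endothelial list, as log2, was 4.26, 4.42, 5.83 and 5.69 in the same order of lines, and that of the fibroblast list ran from 9.51 in naive to 10.09 in erLor0. The part of other cell types in the HOX values was not tested.

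Of the 37 HOX genes in the table, 15 reached the minimum in at least 1 library, 17 were detected below it and 5 were listed at 0 in every library. The silent 5 were HOXA4, HOXA11, HOXB1, HOXB13 and HOXD13, of which HOXB13 is known as a marker of prostate epithelium and HOXD13 as a regulator of digit formation. The minimum was reached by 4 of 7 anterior, 6 of 15 central and 5 of 15 posterior genes, so each class along the body axis was represented. By cluster they were 7 of 9 HOXC genes, 5 of 10 HOXB genes, 2 of 9 HOXA genes and 1 of 9 HOXD genes.

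The H3K27ac peaks, a mark of active promoters and enhancers, covered unequal shares of the clusters. They covered 49.5% of the HOXC cluster (chr12:53938831-54056030, hg38, measured from the first to the last listed gene), 40.0% of HOXB (chr17:48528526-48728750), 20.1% of HOXD (chr2:176092721-176190907) and 16.0% of HOXA (chr7:27100354-27200091). The HOXB span includes a stretch of 96.4 kb without a paired peak next to HOXB13. Without that stretch the HOXB share would be above that of HOXC, so the order of HOXB and HOXC depends on it. HOXC held 37 peaks, HOXD 24, HOXB 21 and HOXA 12. The longest peaks were 36461 bp at HOXB, 26787 bp at HOXC, 10041 bp at HOXA and 3829 bp at HOXD, and 5 of the 94 were longer than 99% of all peaks. The HOXC peak at chr12:53972192-53998978 spanned transcript starts of HOXC6, HOXC9, HOXC10 and HOXC11, and these 4 genes all reached the minimum.

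Counting only genes that lay wholly inside, long stretches without a paired peak held silent or weakly detected genes in most cases. A gap of 28.1 kb in HOXD contained HOXD8, HOXD9 and HOXD10, one of 31.5 kb contained HOXD4, and one of 16.1 kb in HOXA contained HOXA6 and HOXA7. The exception was HOXA2, a regulator of hindbrain and pharyngeal arch identity, which lay in a gap of 14.7 kb and had RNA levels of 5.88, 5.68, 5.80 and 5.47 in naive, erCriz0, erAlec0 and erLor0. The longest gap, 96.4 kb in HOXB, lay between the peak near HOXB13 and the other HOXB peaks. It held no listed gene as a whole, but the 5′ part of HOXB7 reached into it. A peak covered a transcript start in 13 of the 15 genes that reached the minimum and in 7 of the 22 others, and HOXB1 was among the latter.

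Promoter windows of RefSeq, 250 bases before to 50 after a transcript start in GRCh38.p14, matched 20 of the 38 genes in 26 distinct windows. The entries for HOXA5, HOXB2, HOXB3, HOXB4, HOXB5, HOXB6, HOXB7, HOXB8, HOXB9, HOXB13, HOXC6, HOXC8, HOXC9, HOXC10, HOXC11, HOXC12, HOXC13 and HOXD9 were missing. A paired peak overlapped 8 of the 26 windows. Shown are 4 that bracket the findings: HOXD1, under the peak with the largest change of the set, HOXC4, whose RNA was lower in erCriz0 and erLor0, HOXB1, under a peak although its RNA was listed at 0, and HOXA10, at -1.74 on the rlog scale in erLor0 with no peak. The HOXC4 window is also listed for HOXC5, whose RNA stayed below the minimum. Capitals mark matches to TGATNNAT, the composite site of PBX and HOX proteins, TATAAA, or TAATTA, a homeodomain core, searched on both strands.
HOXD1 promoter, chr2:176188418-176188717, plus strand: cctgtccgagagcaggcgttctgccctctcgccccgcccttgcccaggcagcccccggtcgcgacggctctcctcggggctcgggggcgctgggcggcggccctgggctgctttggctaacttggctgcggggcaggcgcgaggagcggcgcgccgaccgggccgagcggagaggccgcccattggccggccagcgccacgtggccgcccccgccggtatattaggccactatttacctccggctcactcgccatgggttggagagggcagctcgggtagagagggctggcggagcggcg
HOXC4 promoter, chr12:54016638-54016937, plus strand: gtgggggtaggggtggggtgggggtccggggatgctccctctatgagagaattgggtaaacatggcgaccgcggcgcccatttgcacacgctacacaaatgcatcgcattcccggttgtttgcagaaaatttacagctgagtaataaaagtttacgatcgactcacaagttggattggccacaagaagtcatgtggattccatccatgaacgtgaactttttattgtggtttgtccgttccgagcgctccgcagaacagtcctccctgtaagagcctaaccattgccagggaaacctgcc
HOXB1 promoter, chr17:48530962-48531261, minus strand: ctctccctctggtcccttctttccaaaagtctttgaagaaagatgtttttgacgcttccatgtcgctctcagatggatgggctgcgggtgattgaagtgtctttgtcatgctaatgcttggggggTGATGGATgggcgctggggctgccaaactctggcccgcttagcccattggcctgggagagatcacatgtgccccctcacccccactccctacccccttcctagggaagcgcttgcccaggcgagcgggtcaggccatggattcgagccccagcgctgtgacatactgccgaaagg
HOXA10 promoter, chr7:27179812-27180111, minus strand: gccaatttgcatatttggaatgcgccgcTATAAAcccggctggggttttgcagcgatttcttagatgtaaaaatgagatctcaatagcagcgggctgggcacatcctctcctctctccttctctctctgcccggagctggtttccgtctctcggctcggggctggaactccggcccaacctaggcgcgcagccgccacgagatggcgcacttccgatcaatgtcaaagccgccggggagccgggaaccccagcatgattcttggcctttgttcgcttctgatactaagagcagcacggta

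The HOXD1 window held 36 CpG dinucleotides, the HOXC4 window 15, the HOXB1 window 11 and the HOXA10 window 21. The median over the 26 HOX windows was 22.5, against 14 over all 34796 windows. The 8 HOX windows under a peak had a median of 17 and the 18 outside peaks one of 23.5. TGATNNAT stood in 3 HOX windows (11.5%, against 7.42% of all windows), TATAAA in 5 (19.2% against 11.6%) and TAATTA in 2 (7.69% against 4.86%), and the matches are descriptions of these letters, not of bound sites. In HOXB1 the match lay 125 bases before the start, and PBX-HOX sites near this gene are known from its autoregulation in the hindbrain.

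The clusters also hold miRNA genes, whose mature forms are shown because 3 of these genes lie in or at peaks of the clusters and the miR-196 genes share a seed. Capitals mark the seed, bases 2 to 8.
hsa-miR-10a-5p: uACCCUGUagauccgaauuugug
hsa-miR-196a-5p: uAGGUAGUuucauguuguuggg
hsa-miR-196b-5p: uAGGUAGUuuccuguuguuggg
hsa-miR-615-3p: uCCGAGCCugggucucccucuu
The miR-196a and miR-196b sequences share the seed AGGUAGU, and miR-196 is known to repress HOXB8. MIR10A lay inside the 31250 bp peak over HOXB3, HOXB4 and HOXB5, MIR196A2 inside the 26787 bp HOXC peak, and MIR615 overlapped the 5544 bp peak inside HOXC4. All 6 miRNA genes had a row and 5 were listed at 0 in every library, and the mature forms were not measured here.

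Among the anterior genes, HOXA3, which patterns the pharyngeal pouches, was the most abundant. Its RNA level was 10.07, 9.57, 10.13 and 9.75 in naive, erCriz0, erAlec0 and erLor0. HOXB3 stood at 6.38, 6.13, 6.90 and 6.84 in the same order, with erAlec0 and erLor0 above the other lines. HOXD1, the one HOXD gene to reach the minimum, did so in erLor0 alone, with 4.36, 4.19, 4.37 and 4.86. HOXD3 stayed below the minimum at 3.22, 3.02, 3.85 and 3.36, highest in erAlec0.

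Of the central genes, HOXB7 was the highest, at 8.09, 8.27, 8.20 and 7.94 in naive, erCriz0, erAlec0 and erLor0. HOXB5, which acts in airway branching, stood at 5.15, 4.23, 5.29 and 5.06. The erCriz0 library was lowest for HOXB5, while HOXB6 varied little at 6.00, 5.91, 6.30 and 6.18. HOXC4 was at 6.30 in both naive and erAlec0 and at 5.52 and 5.44 in erCriz0 and erLor0, so its libraries fell into a higher and a lower pair. HOXC6, a gene of thoracic identity, was at 6.48, 5.88, 6.52 and 6.13. HOXC8, which specifies lower thoracic vertebrae, stood at 5.39, 4.86, 5.56 and 5.37. In both HOXC6 and HOXC8 the erCriz0 library was the lowest and the erAlec0 library the highest.

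Of the posterior genes, HOXC10, which marks lumbar identity, had the highest level of any member. Its RNA (ENSG00000180818.5, chr12:53985065-53990279) was at 10.42, 10.22, 10.63 and 10.15 in naive, erCriz0, erAlec0 and erLor0. HOXB9 was at 8.50, 8.40, 9.00 and 9.13, with erAlec0 and erLor0 above the other lines. HOXC9 stood at 5.82, 5.23, 6.15 and 5.63, HOXC11 at 6.99, 6.30, 7.54 and 6.80. HOXC13, a regulator of hair and nail keratins (ENSG00000123364.5, chr12:53938831-53946544), was at 5.34, 4.53, 6.05 and 5.46, the widest range of any HOX gene at 1.52. For HOXC9, HOXC11 and HOXC13 the order was the same at both ends, erCriz0 lowest and erAlec0 highest. The panels of RNA level by gene show the position of each line.

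**Figure D1:**
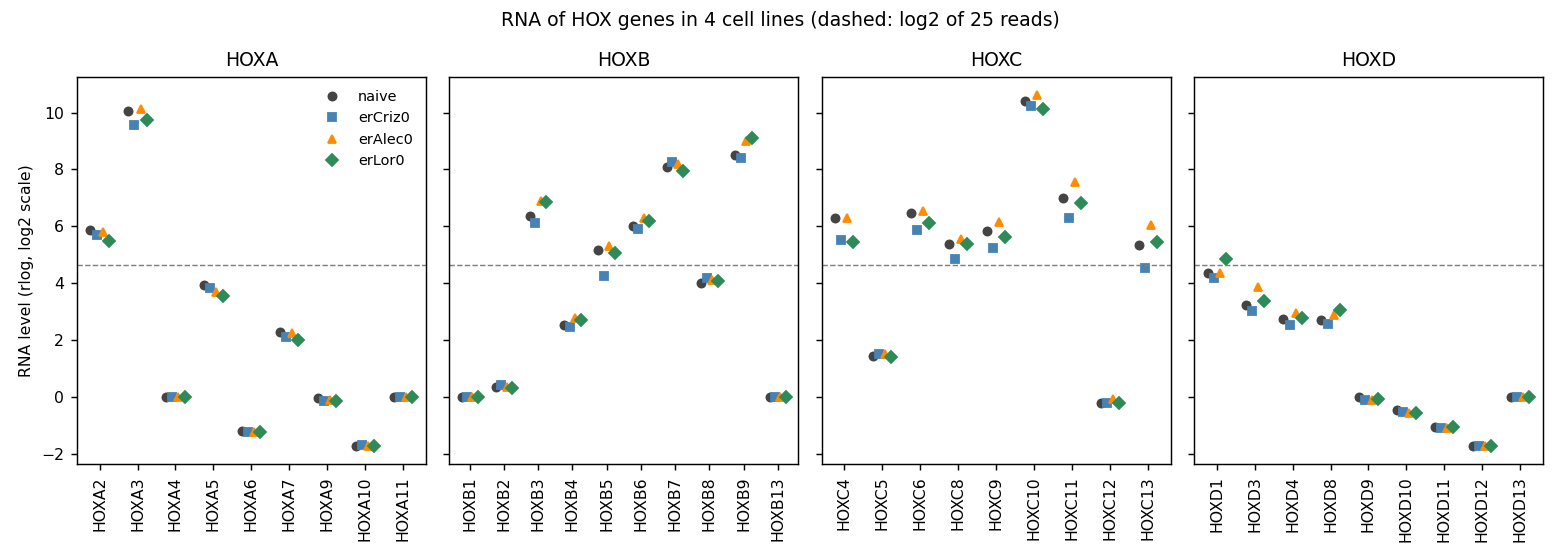
RNA level on the rlog scale (log2) of the 37 HOX genes with a row, in 1 library each of naive, erCriz0, erAlec0 and erLor0 cells, ordered by paralog group within each cluster. The dashed line is the minimum of 25 reads (4.64), which 15 genes reach in at least 1 library, 7 of them in HOXC.

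Per kilobase of exon, on the rlog scale in naive cells, HOXC10 led at 9.17, followed by HOXA3 at 7.96, HOXB7 at 7.48 and HOXB9 at 7.13. HOXC11 at 5.28 and HOXC9 at 5.09 followed at a distance, and HOXD1 was last of the 15 at 3.45. Neighbours such as HOXA3 and HOXB7 differ by less than the 0.56 that HOXA3 itself ranges over the 4 lines. The lengths are those of GENCODE models, which differ from the table's entry in version or coordinates for HOXA3, HOXB3 and HOXB5.

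Reads of neighbouring HOX genes are partly shared in the annotation. On the same strand, other genes covered 17.5% of HOXC4 exon bases, 16.1% of HOXC6, 16.6% of HOXB6 and 9.29% of HOXA3, and 67.3% of HOXC5, which stood at 1.43 in naive cells. On the opposite strand HAGLR, a long noncoding RNA, covered 60.1% of HOXD1. Whether the counting used strand is not given in the sources used here. The levels of HOXC4, HOXC6, HOXB6 and HOXA3 are uncertain to the extent of the same-strand overlap under any such setting. Of the genes that reached the minimum, the strand setting bears most on HOXD1, then on HOXA3 and HOXB6. Other genes covered 17.3% and 16.3% of the exon bases of HOXA3 and HOXB6 on the opposite strand.

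No HOX gene passed a change of 1 in either direction in any resistant line, 0 of 37 each time. Over all genes, 0.818% rose and 0.481% fell by that much in erCriz0. The shares were 0.720% and 0.609% for erAlec0 and 0.321% and 0.219% for erLor0, so a count of 0 among 37 is near the background. Each HOX gene thus stayed within 1 of its naive level on this shrunken log2 scale. The change nearest to the limit was -0.92 for HOXB5 in erCriz0, followed by -0.86 for HOXC4 in erLor0 and -0.81 for HOXC13 in erCriz0.

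At a lower limit of a 1.5-fold change (0.58 on the log2 scale), erCriz0 stood out. There 6 of the 15 genes were lower by that limit, HOXB5, HOXC4, HOXC6, HOXC9, HOXC11 and HOXC13, against 8.52% of all genes that reached the minimum, and 0 were higher, against 7.56%. Of these, HOXC6 at -0.60 and HOXC9 at -0.59 were only just past the limit. With libraries centred, the HOXC median, which is the HOXC6 value, was -0.55 and short of it, so the count depends on normalization. In erAlec0 1 of the 15 was higher, HOXC13 (7.94% of all such genes). In erLor0 HOXB9 was higher (4.44%) and HOXC4 lower (3.65%). Among all 37 genes the count of lower genes in erCriz0 was again 6, against 2.59% of all genes in the table. HOXD3, below the minimum, added a change of 0.63 to the higher genes of erAlec0 (2 of 37, against 2.49%), and erLor0 kept 1 higher and 1 lower gene (1.40% and 1.13%). By sign alone, 1 of 15 genes lay above naive in erCriz0, 14 of 15 in erAlec0 and 5 of 15 in erLor0, against 47.9%, 50.3% and 49.4% of all genes that reached the minimum.

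Of the 6 genes lower in erCriz0, 5 belonged to HOXC, and HOXB5 was the lowest. All 7 HOXC genes that reached the minimum were below naive there, from -0.81 to -0.19 with a median of -0.60, while the 29 other genes within 1 Mb of the cluster had a median of -0.05. In erAlec0 all 7 were above naive, from 0.01 to 0.71 with a median of 0.21, and the 29 neighbours had a median of 0.38. In erLor0 6 of 7 were below naive with a median of -0.19. For the 5 HOXB genes the medians were -0.10, 0.30 and 0.18 in erCriz0, erAlec0 and erLor0, and for the 2 HOXA genes -0.35, -0.01 and -0.36.

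H3K27ac peaks passed a change of 1 more often than genes, at the HOX clusters as over all features. In erCriz0 1 of the 94 peaks rose by 1 and 3 fell, against 7.00% and 5.94% of all peaks. In erAlec0 16 rose and 0 fell, against 14.1% and 9.41%. In erLor0 9 rose and 0 fell, against 7.45% and 8.82%. The counts of rises were near the background in erAlec0 and erLor0, and those of falls were below it. With each library centred on the median of its peaks, the rises in erLor0 were 17 in place of 9. At 1.5-fold, 5 peaks were higher and 15 lower in erCriz0, against 18.4% and 18.7% of all peaks. For erAlec0 the counts were 47 and 2, against 25.9% and 23.4%, and for erLor0 32 and 7, against 19.7% and 22.2%. By sign, 40, 75 and 70 of the 94 peaks were above naive in erCriz0, erAlec0 and erLor0, against 49.6%, 50.2% and 49.0% of all peaks. Of the 94 peaks, 26 stayed below 3.91 on the rlog scale in every library. That level is the log2 of 15 reads and is called 15 reads below, although read numbers themselves are not known. The changes of these 26 peaks are drawn toward 0 most strongly.

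**Figure D2:**
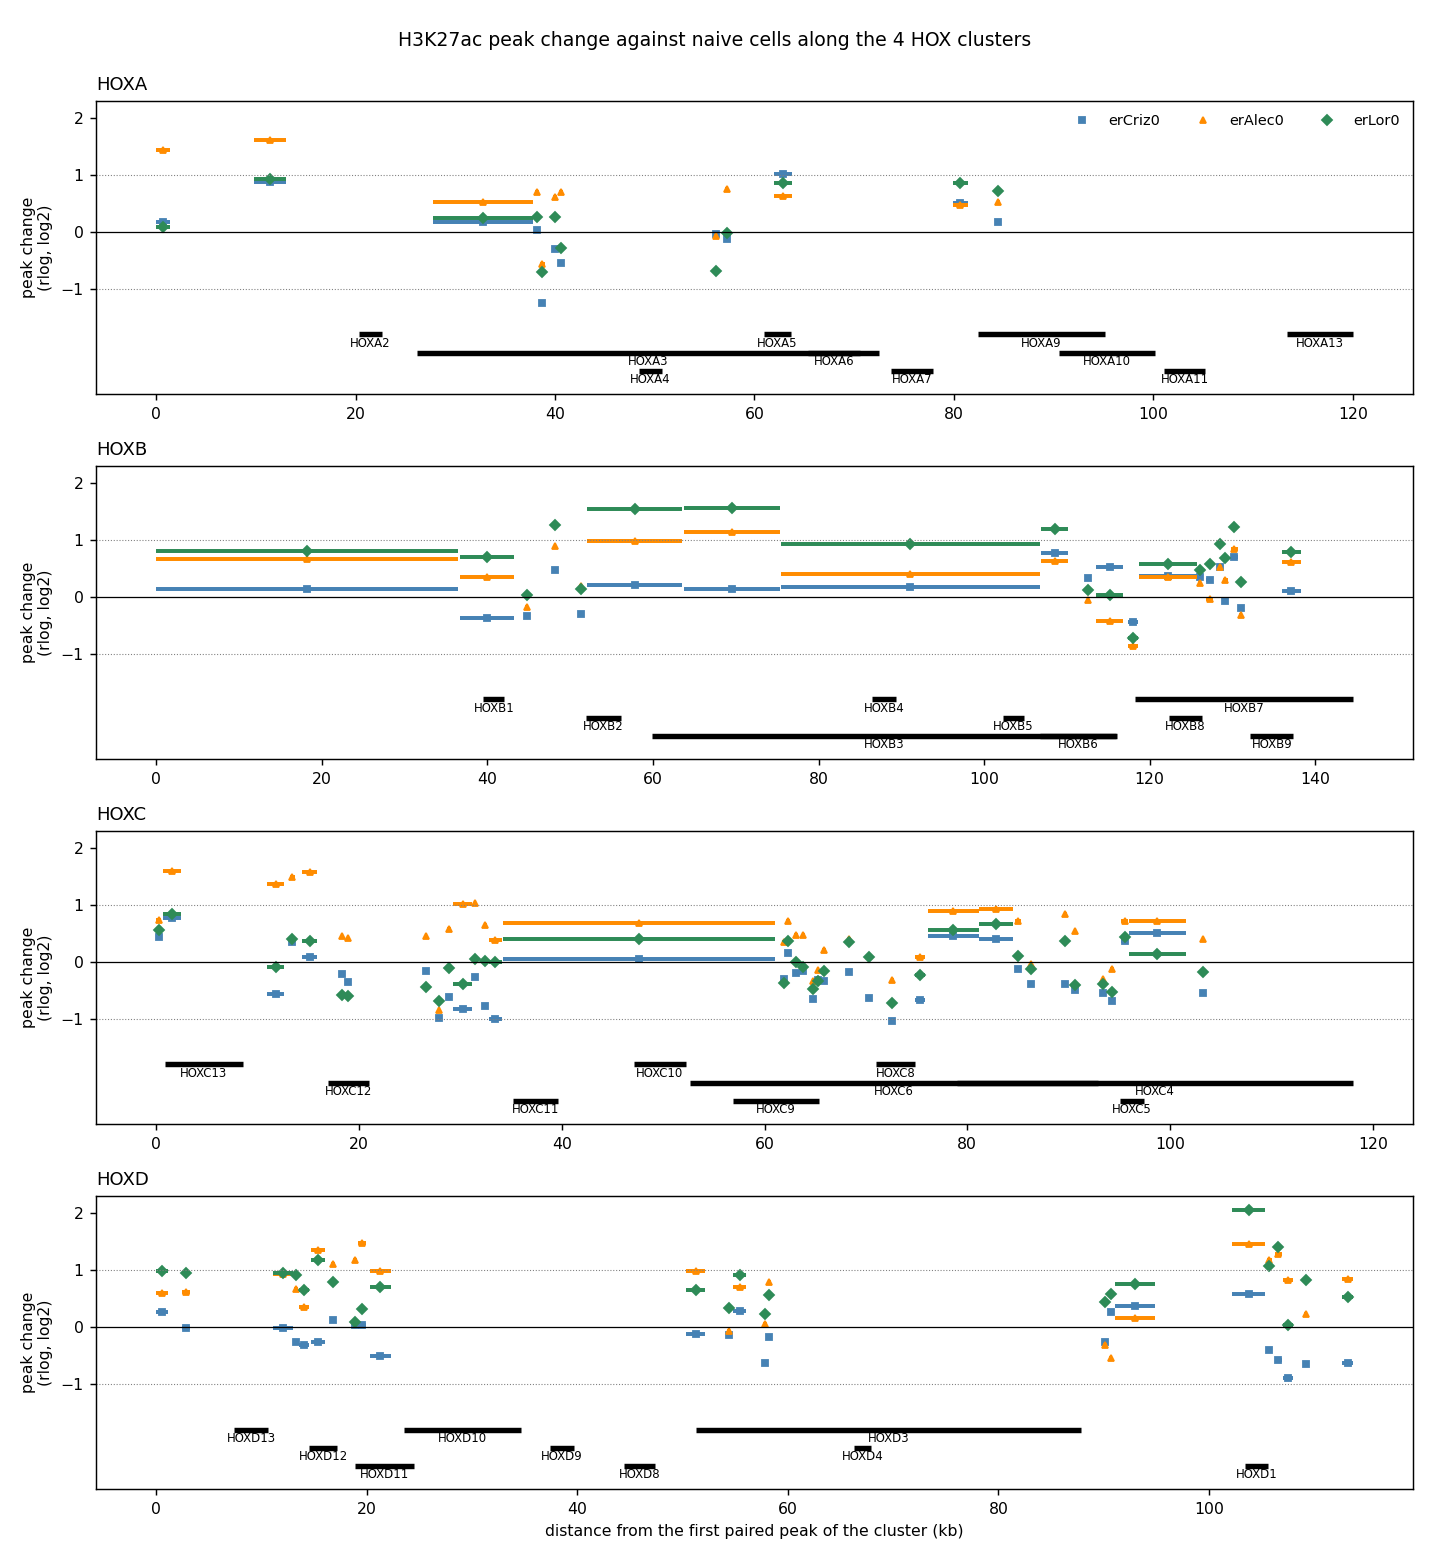
Change of each H3K27ac peak against naive cells (rlog, log2) by distance in kb from the first paired peak of each cluster, with horizontal bars as long as the peak, symbols at its centre, black bars for genes and dotted lines at 1 and -1. HOXB13 and its peak, across the 96.4 kb gap, are left out of the panel. In HOXB the erLor0 symbols lie above 0 at all peaks but one, and in HOXC the erAlec0 symbols lie above those of erLor0 at 36 of 37 peaks.

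The HOXD cluster had the highest median H3K27ac change of the 4 in erAlec0 and erLor0. Its 24 peaks had a median H3K27ac change of -0.16, 0.81 and 0.73 in erCriz0, erAlec0 and erLor0, with 8, 21 and 24 of them above naive. Peaks within 1 Mb outside the cluster, 56 in number, had medians of 0.03, 0.44 and 0.33. No copy number was analysed here, and the part of copy number in regional values was not tested. In HOXD 7 of 24 peaks rose by 1 in erAlec0, near the 30.4% of the 56 surrounding peaks, and 4 of 24 in erLor0, where 7.14% of the surrounding peaks did. None fell by 1 in any line.

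The peak over the start of HOXD1 (chr2:176187493-176190614), whose promoter is printed above, had the largest change of all 94. Its level was 6.80, 7.38, 8.26 and 8.85 in naive, erCriz0, erAlec0 and erLor0, changes of 0.58, 1.46 and 2.06. HOXD1 RNA (ENSG00000128645.15) changed by -0.18, 0.01 and 0.50 in the same lines, within the limit throughout. HAGLR, whose exons the peak also covers, had RNA levels of 7.83, 8.21, 8.11 and 8.80, and was named after its values were seen. Both transcripts were highest in erLor0, like the peak. Next to HOXD1, peaks at chr2:176190779-176191251 and chr2:176191556-176192207 rose by 1.18 and 1.29 in erAlec0 and by 1.07 and 1.41 in erLor0, from 3.58 and 3.78 in naive cells.

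At the other end of HOXD, peaks at posterior genes far below the RNA minimum also rose. The peak with the largest rise in erAlec0, at chr2:176104458-176105222 inside HOXD11, stood at 3.85, 3.89, 5.32 and 4.16 in naive, erCriz0, erAlec0 and erLor0, a change of 1.48 in erAlec0. A peak of 1274 bp inside HOXD12 stood at 4.70, 4.44, 6.06 and 5.88. Both genes were below 0 on the RNA scale in all 4 libraries, HOXD11 at -1.07 and HOXD12 at -1.74 in erLor0. The peak over a start of HOXD3 (chr2:176135627-176137419) was at 6.96, 6.84, 7.93 and 7.61. The lowest change of the cluster in erCriz0 was -0.90, at chr2:176192314-176193266, and the highest level in naive cells was 8.67 at chr2:176176355-176180183, between HOXD3 and HOXD1.

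In HOXB the lorlatinib-selected line was highest. The 21 peaks had a median H3K27ac change of 0.21, 0.34 and 0.68 in erCriz0, erAlec0 and erLor0, with 15, 14 and 20 above naive, while 183 peaks within 1 Mb outside had medians of 0.18, 0.02 and 0.07. In erLor0 5 of 21 HOXB peaks rose by 1, against 4.37% of the surrounding and 7.45% of all peaks. In erAlec0 1 of 21 did, against 6.56% and 14.1%. The exception in erLor0 was the peak at chr17:48606331-48607531, at the 3′ end of HOXB7, which was lower in each line by changes of -0.45, -0.86 and -0.72.

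The largest gains lay over HOXB2 and HOXB3, which act in the hindbrain. The peak over the start of HOXB2 (chr17:48541070-48552531) stood at 9.23, 9.44, 10.20 and 10.77 in naive, erCriz0, erAlec0 and erLor0, and the adjoining peak inside HOXB3 (chr17:48552777-48564282) at 9.98, 10.11, 11.11 and 11.53. Their changes in erLor0 were 1.54 and 1.55, the second the largest in HOXB. HOXB2 RNA was close to 0 in every library, 0.30 in erLor0, and HOXB3 RNA was higher in erLor0 by 0.47. The 31250 bp peak over HOXB3, HOXB4 and HOXB5 (chr17:48564469-48595718), which contains MIR10A, stood at 11.29, 11.47, 11.69 and 12.22. The next peak, over a start of HOXB6 (chr17:48595880-48599169), rose by 1.19 in erLor0 and had the largest change of HOXB in erCriz0, 0.76. HOXB5 RNA, at -0.92 in erCriz0, went with paired peaks whose median change was 0.34 there.

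The longest and highest HOXB peak, 36461 bp at chr17:48488992-48525452, lay beyond the anterior end, next to HOXB1. Its level was 12.75, 12.89, 13.41 and 13.55 in naive, erCriz0, erAlec0 and erLor0. The peak over HOXB1 itself stood at 8.42, 8.05, 8.76 and 9.11 although HOXB1 RNA was listed at 0 in all 4 lines. In the posterior part, the peak over HOXB7 and HOXB8 starts was at 10.75, 11.12, 11.11 and 11.33 and the peak over HOXB9 at 6.87, 6.96, 7.48 and 7.65. A peak of 820 bp between HOXB8 and HOXB9 (chr17:48618812-48619631) rose by 1.23 in erLor0, from 4.34 in naive cells.

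In HOXC the median was below naive in the crizotinib-selected line and above it in the alectinib-selected line. The 37 peaks had a median H3K27ac change of -0.33, 0.48 and -0.08 in erCriz0, erAlec0 and erLor0, with 10, 30 and 18 above naive. The 206 peaks within 1 Mb outside had medians of -0.14, 0.08 and -0.09. In erAlec0 6 of 37 HOXC peaks rose by 1, near the 14.1% of all peaks, while 9.71% of the surrounding peaks did. In erCriz0 2 HOXC peaks fell, against 5.94% of all peaks, at chr12:54010403-54010703 with -1.03 and at chr12:53970761-53972059 with -1.01. Both lie at the limit, and with the trend of change with level removed they were at -0.84 and -0.9999, short of it. The negative median in erCriz0 also shrank to -0.16 with that trend removed, where the surrounding peaks had -0.19, and to -0.16 with peaks that reached 15 reads.

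All 6 erAlec0 gains in HOXC lay at its posterior end, between the start of HOXC13 and HOXC11. The peak over the start of HOXC13 (chr12:53938640-53940434) stood at 7.21, 7.98, 8.81 and 8.05 in naive, erCriz0, erAlec0 and erLor0, the highest change of the cluster in each line, with values of 0.77, 1.60 and 0.84. In erCriz0 this peak was higher while HOXC13 RNA was lower by -0.81, and in erAlec0 both were higher. Between HOXC13 and HOXC12, a peak of 1462 bp at chr12:53952380-53953841 stood at 4.49, 4.58, 6.08 and 4.86. A peak of 1803 bp over a HOTAIR exon (chr12:53967296-53969098) stood at 5.50, 4.67, 6.51 and 5.11. HOTAIR, a noncoding RNA that silences HOXD in other cells, had RNA levels of 4.80, 4.77, 5.22 and 4.62, and was named after its values were seen.

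The 26787 bp peak from HOXC11 to HOXC9 was the highest of the 94 in naive cells at 12.75 and reached 12.80, 13.44 and 13.16 in erCriz0, erAlec0 and erLor0. It was thus no lower in erCriz0, where HOXC11 and HOXC9 RNA were at -0.69 and -0.59. The peaks at HOXC4 starts, at chr12:54014135-54019085 and chr12:54033960-54039503, also stood above naive in every line, from 9.14 to 9.60, 10.03 and 9.70 and from 8.99 to 9.51, 9.71 and 9.14 in erCriz0, erAlec0 and erLor0. The negative HOXC median in erCriz0 came from the shorter peaks, of which the 27 peaks under 1 kb had a median of -0.34 and the 9 of 1 to 10 kb one of 0.09.

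In HOXA the changes were close to those of the region. The 12 peaks had a median H3K27ac change of 0.10, 0.62 and 0.25 in erCriz0, erAlec0 and erLor0, with 7, 10 and 8 above naive, and 76 peaks within 1 Mb outside had medians of 0.16, 0.64 and 0.39. The highest change in erAlec0 and erLor0 was at chr7:27089870-27093086, beyond the anterior end, where levels were 7.20, 8.07, 8.81 and 8.13. The peak over 1 of the 6 HOXA3 starts (chr7:27107779-27117819), the highest of HOXA, was at 10.90, 11.07, 11.42 and 11.15. The peak over the start of HOXA5, a regulator of lung maturation, was at 7.39, 8.41, 8.01 and 8.24 and was the one HOX peak to pass 1 in erCriz0, at 1.02, a call lost under quantile normalization and at 0.71 with the level trend removed, while HOXA5 RNA stayed below the minimum. A short peak inside HOXA3, at chr7:27118515-27119051, fell by 1.25 in erCriz0 and had changes of -0.56 and -0.70 in the other lines.

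**Figure D3:**
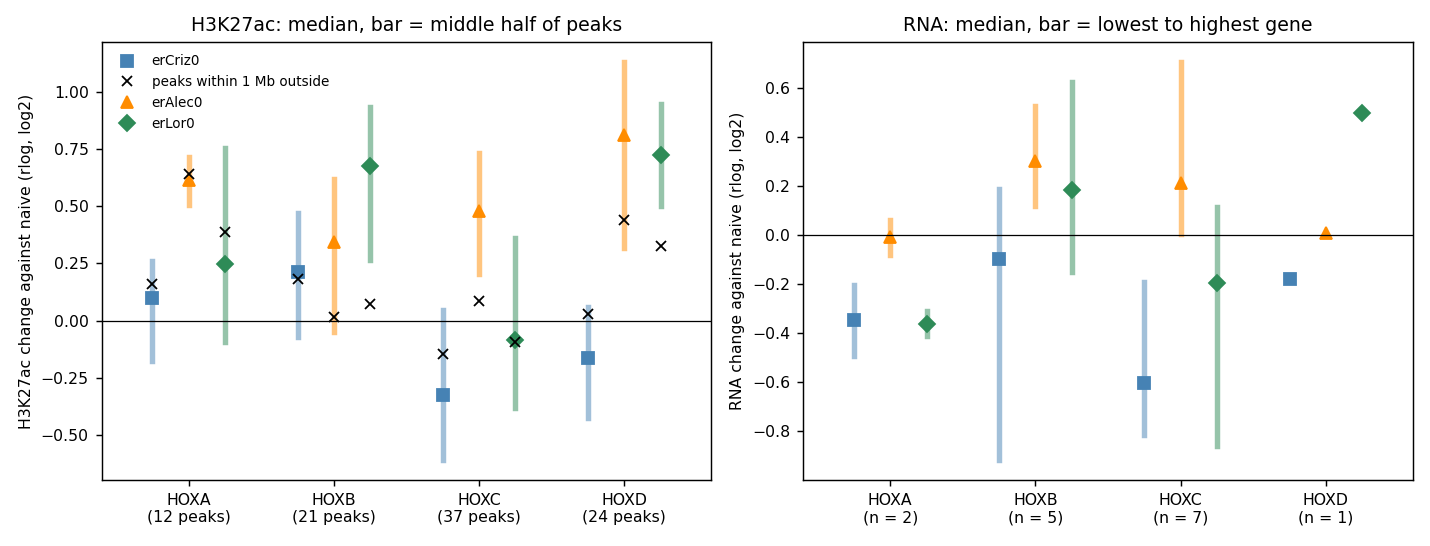
Left, median H3K27ac change against naive cells (rlog, log2) of each cluster's peaks, with bars from the lower to the upper quartile and crosses for the median of peaks within 1 Mb outside the cluster. Right, median RNA change of the genes that reached the minimum, with bars from the lowest to the highest gene. HOXC lies at -0.33 and 0.48 for H3K27ac in erCriz0 and erAlec0, and HOXB in erLor0 lies at 0.68 with its region at 0.07.

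The broadest HOX peaks changed more in erAlec0 and erLor0 than in erCriz0. The 6 HOX peaks of at least 10 kb, 4 in HOXB and 1 each in HOXA and HOXC, were above naive in all 3 lines, with median H3K27ac changes of 0.15, 0.67 and 0.86 in erCriz0, erAlec0 and erLor0. All 1618 peaks of that length had medians of 0.10, -0.06 and 0.07. In erCriz0 the 6 changes were only 0.04 to 0.21. With the level trend removed they were -0.14 to -0.01, so all 6 lay below the median change of peaks of similar level. The 28 HOX peaks of 1 to 10 kb had medians of 0.22, 0.78 and 0.68, against 0.23, 0.14 and 0.23 in 36989 peaks. The 60 under 1 kb had medians of -0.24, 0.46 and 0.18, against -0.11, -0.03 and -0.09 in 87863. The 19 peaks over a member's transcript start had medians of 0.18, 0.72 and 0.69 and the other 75 had -0.21, 0.48 and 0.26.

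The alectinib- and lorlatinib-selected lines can be compared without the naive library. For H3K27ac, erLor0 was higher than erAlec0 at 20 of 21 HOXB peaks, with a median difference of 0.39, and lower at 36 of 37 HOXC peaks, with a median of -0.47. The surrounding peaks had median differences of 0.05 and -0.22. HOXA had 3 of 12 peaks higher in erLor0 with a median of -0.40 and HOXD 14 of 24 with a median of 0.15. Of the 94 peaks, 1 was higher and 9 were lower in erLor0 by 1, against 1.58% and 6.66% of all peaks, and 6 of the 9 were in HOXC. For RNA no member passed a difference of 1 between them, against 0.171% of all genes higher and 0.189% lower. All 7 HOXC genes that reached the minimum were lower in erLor0, with a median RNA difference of -0.52, and 1 of 5 HOXB genes was higher.

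RNA and peaks of the same gene went together unevenly. Across the 15 genes, the Pearson correlation between the RNA change and the median change of a gene's paired peaks was 0.39, -0.09 and 0.67 in erCriz0, erAlec0 and erLor0, and the Spearman correlation 0.21, -0.22 and 0.49. These are descriptions across genes that share 77 distinct peaks and the same libraries. The signs were the same in 9, 14 and 9 of the 15 genes. In erAlec0 the median peak change was above naive for all 15, so the 14 only repeats the count of genes with RNA above naive. In erLor0 the HOXB and HOXD genes lay at higher peak changes than the HOXC genes. Within HOXB the RNA change was -0.15 for HOXB7 and 0.62 for HOXB9 at median peak changes of 0.58 and 0.57.

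**Figure D4:**
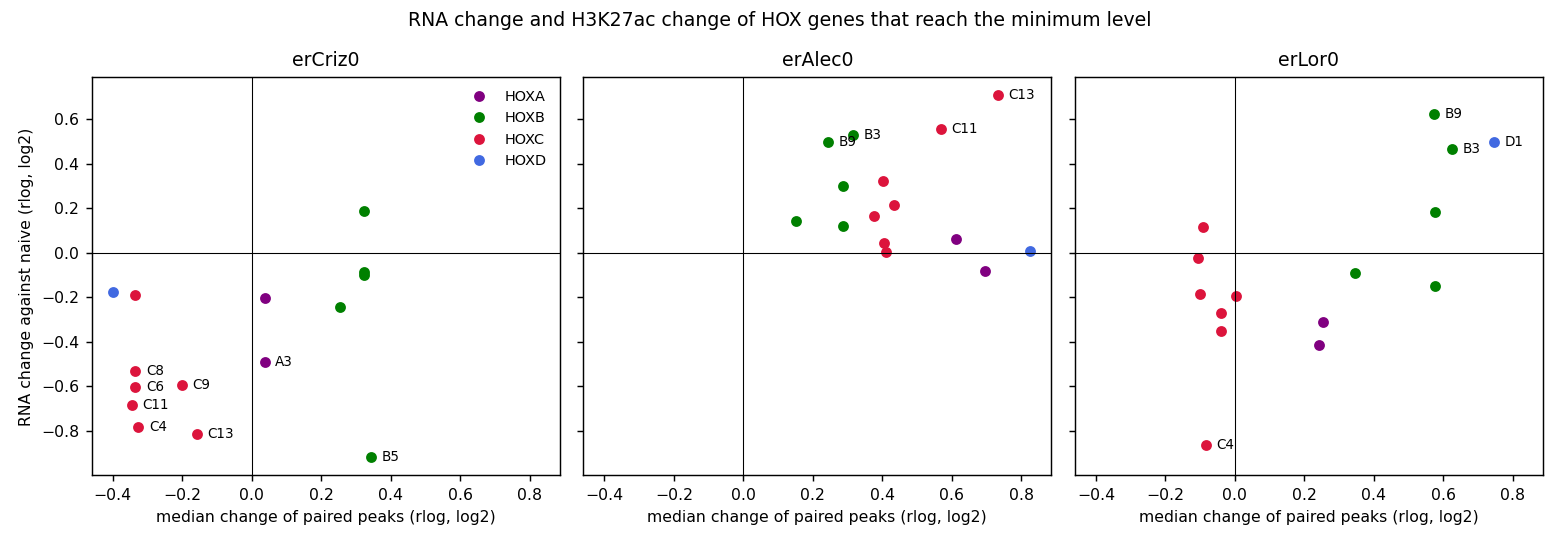
RNA change (vertical) against the median change of the paired H3K27ac peaks (horizontal), both against naive cells on the rlog scale (log2), for the 15 HOX genes that reached the minimum, with genes named at an RNA change of at least 0.45 in size. HOXB5 in erCriz0 lies at an RNA change of -0.92 and a peak change of 0.34, and HOXC4 in erLor0 at -0.86 and -0.08.

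Of genes outside the clusters, the 3 with the pattern nearest to each of the members with the widest RNA range were listed, by Euclidean distance between centred rlog values over the 4 libraries among 12162 genes. For HOXC13 they were JUND at a distance of 0.09, TMEM184A at 0.09 and PCED1B at 0.14. For HOXC11 they were SERINC2 at 0.09, ODC1 at 0.10 and CRYBG2 at 0.11. For HOXB5 they were SLC48A1 at 0.03, CEBPB at 0.06 and TTC7B at 0.08. All 9 were lowest in erCriz0, as the members are, and with 4 libraries many genes can share such an order.

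Genes that act with or upon the HOX clusters were mostly within the limit. Of 17 long noncoding RNAs of the clusters with a row, 6 reached the minimum and none passed a change of 1, and HOTTIP and HOXA-AS1 had no row. The 22 Polycomb genes and the 18 genes of the MLL and DOT1L complexes all reached the minimum and none passed it, with median RNA changes between -0.13 and 0.07 over the lines. None of the 16 genes flanking the clusters passed it. Of 15 ParaHox and retinoid genes with a row, CRABP2, which carries retinoic acid to the nucleus, fell in erCriz0, with levels of 10.94, 9.83, 10.26 and 10.36 in naive, erCriz0, erAlec0 and erLor0. The 9 of these that reached the minimum had median RNA changes of -0.48, -0.17 and -0.29, against -0.02, 0.00 and 0.00 over all genes that reached it.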

How the data were processed

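H3K27ac ChIP-seq and bulk RNA-seq of naive H3122 cells, erCriz0, erAlec0 and erLor0 were used, with 1 library of each kind per line. erCriz1, erLor1, the sample Lor 2w and the pooled input were not analysed here, and some HOX and related genes of the table are not reported here.

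The authors deposited 1 table of peak and gene pairs at most 20 kb apart, with log2 values that they computed with the rlog function of DESeq2. RNA reads were aligned to hg38 with HISAT2 and counted with HTSeq-count. ChIP reads of 75 nt were aligned with BWA, kept at a mapping quality of at least 25 without duplicates, peaks were called with MACS2 (q of 0.05), merged over 4 samples and counted with featureCounts. Tool versions, the annotation release and the strand setting are not given in the sources used here. Columns with the authors' own correlations and p-values were not used. The rlog shrinks features with few reads, read totals cannot be recovered, so that depth is unknown and counting error cannot be stated.

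Changes against naive cells were computed in Python 3.11.15 with pandas 2.3.3 and numpy 2.4.6 over the whole table, and a gene or peak was called at a change of 1. No test was possible with 1 library per line, nor is it stated that the libraries come from separate cultures. Levels per kilobase subtract log2 of the union exon length in GENCODE 44. Code was tested on simulated data. Members, gene lists, limits and alternatives were chosen with earlier results of these data known. Named were all members, each cluster's largest rise, largest fall and highest peak, genes of the related lists past a change of 1, marker and neighbouring genes whose values bear on a result, and the 3 nearest genes of the 3 members with the widest range. Alternatives were quantile normalization, centring, other limits and minimums, a 5 kb distance, and removal of the level trend, the last chosen after seeing the data.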

Additional observations from a re-analysis of the deposited data

Results flagged for a closer look

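Between resistant lines, 6 differences were singled out because most values of a cluster lay on opposite sides of naive cells. None was tested, since each line had 1 library, and each pair of changes shares the naive library.

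For HOXC, the median H3K27ac change was -0.33 in erCriz0 and 0.48 in erAlec0, with 27 and 7 of 37 peaks below naive. The median RNA change of the same cluster was -0.60 in erCriz0 and 0.21 in erAlec0, with 7 and 0 of 7 genes below naive. It was 0.21 in erAlec0 and -0.19 in erLor0, where 6 of 7 genes were below naive.

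For HOXD, the median H3K27ac change was -0.16 in erCriz0 and 0.81 in erAlec0, with 16 and 3 of 24 peaks below naive. Against erLor0 the values were -0.16 and 0.73, and 0 of 24 peaks lay below naive in erLor0. The RNA change of HOXD rests on HOXD1 alone and was -0.18 in erCriz0 and 0.50 in erLor0.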

How the results depend on the processing

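No paired analysis was possible because each line has 1 library. The medians that came to lie on the other side of 0 were those of HOXC in erLor0, from -0.08 to 0.10 with peaks of at least 15 reads, of HOXA in erCriz0, and of HOXA RNA in erAlec0, from -0.01 to 0.02 with libraries centred. At a limit of 1.5-fold, the RNA counts of 0 became 2 higher in erAlec0, 1 higher and 1 lower in erLor0 and 6 lower in erCriz0. The peak counts for up and down became 5 and 15 (erCriz0), 47 and 2 (erAlec0), and 32 and 7 (erLor0). At a limit of 2 they were 0 up and 0 down in erCriz0, 0 up in erAlec0 and 1 up in erLor0. Quantile normalization gave 0 up in erCriz0 and 1 down in erAlec0, and medians of 0.0301 for HOXB and -0.21 for HOXC in erCriz0. Centring each library on its peaks gave 17 up in erLor0, 1 down in erCriz0, and erLor0 medians of 0.35 for HOXA, 0.78 for HOXB, 0.0169 for HOXC and 0.83 for HOXD. Removing the level trend, chosen after seeing the data, gave 0 up and 1 down in erCriz0, 0.0423 for HOXB and -0.16 for HOXC in erCriz0, and 0.0185 for HOXC in erLor0. With peaks of at least 15 reads, HOXC was at -0.16, 0.72 and 0.10 in erCriz0, erAlec0 and erLor0. With peaks at most 5 kb away, HOXA in erCriz0 was at -0.0035. With genes above 0, RNA medians were -0.18 for HOXA in erCriz0, 0.19 for HOXB in erAlec0, and 0.21 and 0.25 for HOXD in erAlec0 and erLor0. Other alternatives stayed within 0.1 of a median or 1.5 times a count. The cause of these shifts was not tested. Unknown depth limits the weak genes and the 26 peaks under the minimum.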
